A study of Mus musculus with 27 samples.

Results

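The response of mouse spleen B cells to 3 hours of interleukin-4 plus an antibody to CD40 (IL-4+anti-CD40) was described across all genes, in 8 of the 27 RNA sequencing libraries of the study. The comparison was the IL-4+anti-CD40 group of the first experiment, 4 libraries, against its unstimulated group, also 4 libraries, and 14433 of the 54532 genes in the file had enough reads to be tested. The study asked how disulfiram (DSF), a drug for alcohol dependence, alters B cells given lipopolysaccharide (LPS) or IL-4+anti-CD40. None of the 8 libraries received DSF. No library of the study received IL-4 or the antibody alone, so the part of each in the response cannot be told apart. All came from splenic B cells of wild-type C57BL6 mice, enriched by removing other cells and then cultured for 3 hours. The stimulated group is labeled as given vehicle, and the labels of the unstimulated group of this experiment name no vehicle. The doses of IL-4 and of the antibody, and the age and sex of the mice, are not given for the sequenced cultures themselves in the sources used here. The study's methods state doses only for B cell cultures in general, and an age and a sex only for the animals of its transplant experiments. The libraries of a group are described as independent samples, and whether each came from another mouse is not stated. A group given LPS and vehicle in the same experiment, 4 libraries, was used to ask where the response to IL-4+anti-CD40 differed from that to another stimulus.

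IL-4 is the T cell cytokine that drives switching to IgE and IgG1. Its receptor, IL-4Rα paired with the common gamma chain, activates the kinases JAK1 and JAK3, which phosphorylate the transcription factor STAT6. CD40 is a TNF receptor family member on B cells, and the antibody stands in for CD40 ligand on a helper T cell. CD40 recruits TRAF adaptors, which activate the kinases of the canonical NF-κB route (RelA, c-Rel and p50) and of the alternative route (RelB and p52). LPS, the cell wall component of Gram-negative bacteria, signals through TLR4 to NF-κB and to interferon-regulatory factors.

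Total counts were between 17804851 and 22583661 in the 8 libraries. Unstimulated replicates 1 and 2 stood apart from unstimulated replicates 3 and 4, since 2047 to 2107 of the tested genes differed by at least 2-fold between a library of one pair and a library of the other, against 278 and 359 within the pairs. IL-4+anti-CD40 replicates 3 and 4 carried more RNA of stress genes than replicates 1 and 2, genes picked here after their values were seen. The heat shock protein gene Hspa1a was at 3.28, 5.14, 35.4 and 137 FPKM, the fragments per kilobase of gene length scaled to sequencing depth, in IL-4+anti-CD40 replicates 1 to 4, against 660.5 to 896 with DSF added. The heme oxygenase gene Hmox1 was at 5.70, 10.4, 73.8 and 143 FPKM, against 798 to 1007 with DSF added. The unstimulated group split as well, with Hspa1a at 6.48, 5.76, 0.571 and 0.620 FPKM and Hmox1 at 36.0, 37.9, 2.70 and 3.18 FPKM in replicates 1 to 4. A call was therefore said to hold only where it was also made with IL-4+anti-CD40 replicates 1 and 2 alone, against unstimulated replicates 1 and 2 alone, and against unstimulated replicates 3 and 4 alone. B cell markers were high in every library, with a summed level of 1516 to 1750 FPKM after stimulation and 2433 to 3309 FPKM before it, Cd79b alone being at 590.5 to 983 FPKM. Of the 10 myeloid markers tested, 8 were lower after stimulation and 6 of those calls held. Their summed level was 99.5 to 115 FPKM against 340 to 444 in unstimulated libraries, with Lyz2 alone at 65.1 to 81.8 against 268 to 406 FPKM. Of the 9 neutrophil markers 8 were lower and 4 of those calls held, at summed levels of 14.7 to 20.3 against 26.1 to 84.5 FPKM. Among them S100a9 was at 36.7, 35.5, 6.18 and 8.65 FPKM in unstimulated replicates 1 to 4 and at 6.15 to 9.38 FPKM stimulated. Of the 9 T cell markers tested 5 were lower, and 3 of those calls held, Cd3e, Cd3d and Cd3g. Il7r was higher, at 3.99 to 5.33 FPKM against 0.555 to 3.06 FPKM, a call that did not hold. Summed T cell markers were at 8.93 to 10.4 FPKM after stimulation and at 5.77 to 17.7 FPKM before it. No marker of any of these lists was at 0 in all 8 libraries. Of 6 dendritic cell markers 5 were lower, and 3 of those calls held. The other 1, Zbtb46, was higher, at 8.62 to 9.73 FPKM against 0.403 to 0.941 FPKM, a call that held. The part of other cells in the results was not tested, and in bulk RNA fewer cells of a type and less RNA per cell cannot be told apart.

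Most known target genes of STAT6 and STAT5 were higher after stimulation. Differences were tested with edgeR's quasi-likelihood test on counts, with Benjamini-Hochberg adjustment over all tested genes and 0.05 as threshold, and are log2 fold changes ± the standard error that the test implies. Among the 20 STAT6 and STAT5 targets, 16 rose and 2 fell, and the median log2 fold change was 2.12. Across all tested genes 30.4% were higher and 32.1% lower, with a median of -0.04. The call held for 12 of the 16 higher genes and for both lower ones, where 23.6% of all genes held as higher and 23.1% as lower.

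The largest change in this list was that of Cish, which encodes an inhibitor of STAT5 signaling. Cish (ENSMUSG00000032578, chr9:107296026-107302784) was at 0.146, 0.252, 0.182 and 0.150 FPKM in unstimulated replicates 1 to 4 and at 23.3, 23.5, 21.9 and 21.5 FPKM in the IL-4+anti-CD40 replicates. The groups did not overlap and each was tight. The log2 fold change was 6.96 ± 0.16 (adjusted p = 1.07e-07). Socs3, another inhibitor of cytokine receptors, went from 3.27, 2.74, 5.19 and 5.00 FPKM to 75.7, 73.5, 73.7 and 74.0 FPKM, a log2 fold change of 4.21 ± 0.22 (adjusted p = 1.58e-06). Every stimulated library was above every unstimulated one. Socs1, which blocks JAK kinases, rose by 3.68 ± 0.15 on the log2 scale, and Socs2 by 1.78 ± 0.30. Socs5 went the other way, at 8.34 to 12.4 FPKM unstimulated and 4.34 to 5.22 FPKM stimulated, and its log2 fold change was -1.05 ± 0.14. In all, 6 of the 8 genes of the SOCS family rose and 1 fell.

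Other known IL-4 target genes rose as well. Fcer2a encodes CD23, the low-affinity IgE receptor, and is a standard readout of IL-4. It was at 108, 107, 297 and 280.4 FPKM in unstimulated replicates 1 to 4 and at 1012, 1098, 812 and 729 FPKM in IL-4+anti-CD40 replicates 1 to 4. The unstimulated pairs differed from each other, yet the lowest stimulated library was above the highest unstimulated one. The log2 fold change was 2.22 ± 0.38 (adjusted p = 0.000841), and it was 3.09 against unstimulated replicates 1 and 2 and 1.68 against replicates 3 and 4. Nfil3, a leucine zipper factor needed for IgE switching, was at 2.77, 2.85, 1.07 and 0.887 FPKM before and 97.3, 106, 76.5 and 68.2 FPKM after stimulation, so its lowest stimulated library exceeded every unstimulated library. Its log2 fold change was 5.54 ± 0.39 (adjusted p = 7.41e-06). Ccl17, a chemokine that attracts CCR4-bearing T cells, was at 0.374 to 1.11 FPKM unstimulated and 8.29 to 12.8 FPKM stimulated (log2 fold change 4.11 ± 0.35).

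Transcripts of the ε heavy chain locus were also higher. Ighe was at 0.189, 0.340, 0.305 and 0.415 FPKM unstimulated and 1.59, 1.68, 1.20 and 1.35 FPKM stimulated, with a log2 fold change of 2.24 ± 0.28 (adjusted p = 0.000135) and no overlap between the groups. In LPS libraries Ighe was at 0 to 0.108 FPKM. Such reads can come from the unswitched germline locus, and these counts do not separate germline from switched transcripts. Ighg1 was at 11.1, 10.9, 3.87 and 5.28 FPKM unstimulated and 12.2, 15.1, 11.9 and 11.2 FPKM stimulated, a difference of 0.72 ± 0.31 that missed the threshold (adjusted p = 0.071) and passed it without unstimulated replicate 1 or without replicate 2. Ighg1 was also called higher against unstimulated replicates 3 and 4 alone (1.485). With all 8 libraries it was called by DESeq2, another test of counts (0.729), and with replicate number as a block (0.838). Il4i1, an amino acid oxidase induced by IL-4, rose by 3.16 ± 0.25 from a level at or below 0.129 FPKM. Il4ra itself was at 23.5, 23.0, 60.2 and 54.1 FPKM unstimulated and 76.0, 79.0, 67.3 and 63.6 FPKM stimulated, and its call (log2 fold change 0.84 ± 0.32, adjusted p = 0.0451) was not made with IL-4+anti-CD40 replicates 1 and 2 alone, nor when any 1 IL-4+anti-CD40 library or unstimulated replicate 1 or 2 was left out. Bcl6, the master factor of germinal center B cells, fell by 0.86 ± 0.10 on the log2 scale.

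The promoters of 4 of these genes are shown because they hold the palindromes that STAT dimers are known to bind, the half-sites TTC and GAA parted by 3 bases or, with the longer spacer that STAT6 prefers, by 4 bases. Each runs from 250 bases before to 50 bases after a RefSeq transcription start on GRCm38, on the strand of the gene, with the motifs in capitals. Of the 20 target genes 15 had a promoter in the RefSeq table. The form with 3 bases between the half-sites was found in 4 of the 15, among them Cish, Socs3 and Ccl17, and the form with 4 bases in 2, Fcer2a and Ccl17, on either strand. The shares over all 27025 genes of the table were 9.55% and 8.01%. In Cish the first motif begins at the start itself and the other 11 bases after it.
Cish promoter, chr9:107296409-107296708, plus strand: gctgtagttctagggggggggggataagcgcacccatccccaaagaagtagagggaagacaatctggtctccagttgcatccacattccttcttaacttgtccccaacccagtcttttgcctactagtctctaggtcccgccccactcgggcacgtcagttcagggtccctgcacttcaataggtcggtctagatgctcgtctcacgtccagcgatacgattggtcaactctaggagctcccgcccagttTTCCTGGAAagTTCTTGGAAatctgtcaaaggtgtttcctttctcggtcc
Socs3 promoter, chr11:117969317-117969616, minus strand: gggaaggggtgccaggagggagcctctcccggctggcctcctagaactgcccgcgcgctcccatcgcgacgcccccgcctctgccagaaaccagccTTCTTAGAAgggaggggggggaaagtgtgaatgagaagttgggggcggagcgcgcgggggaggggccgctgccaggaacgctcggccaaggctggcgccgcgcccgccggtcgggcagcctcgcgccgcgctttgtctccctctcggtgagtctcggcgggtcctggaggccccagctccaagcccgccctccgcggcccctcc
Ccl17 promoter, chr8:94810203-94810502, plus strand: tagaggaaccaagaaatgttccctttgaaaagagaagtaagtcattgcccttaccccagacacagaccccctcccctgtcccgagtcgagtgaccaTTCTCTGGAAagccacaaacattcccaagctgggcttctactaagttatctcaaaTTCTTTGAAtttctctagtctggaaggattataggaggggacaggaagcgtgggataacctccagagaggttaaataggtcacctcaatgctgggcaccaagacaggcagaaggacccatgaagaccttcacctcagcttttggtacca
Fcer2a promoter, chr8:3690812-3691111, minus strand: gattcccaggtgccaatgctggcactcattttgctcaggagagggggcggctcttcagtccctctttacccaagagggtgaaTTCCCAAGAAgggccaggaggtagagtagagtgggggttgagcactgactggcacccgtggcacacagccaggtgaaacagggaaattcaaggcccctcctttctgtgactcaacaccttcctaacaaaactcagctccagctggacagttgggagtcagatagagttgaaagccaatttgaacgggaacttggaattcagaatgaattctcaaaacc
A match is a description of letters and not of binding, and the windows are short. The Socs3 motif begins 154 bases before the start, those of Ccl17 154 and 99 bases before it, and that of Fcer2a 168 bases before the start used, which is 1 of 3 annotated.

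Of the 15 genes of the IL-4 receptor and JAK-STAT chain 7 were higher and 5 lower, with a median log2 fold change of 0.27, and 5 and 3 of those calls held. The lower share is close to the 32.1% of all genes. With total counts alone as scaling 4 were higher, and with IL-4+anti-CD40 replicates 1 and 2 alone 3 were lower. Stat5a was the largest rise, from 8.84, 9.08, 7.06 and 6.47 FPKM in unstimulated libraries to 49.7, 53.4, 52.3 and 49.5 FPKM in stimulated ones. The log2 fold change was 2.73 ± 0.11 (adjusted p = 5.47e-07), and the lowest stimulated library was above 9.08 FPKM, the highest unstimulated value. Stat6 rose by 0.78 ± 0.11 and Stat3 by 1.01 ± 0.21. Jak1, at 65.7 to 88.3 FPKM unstimulated and 52.4 to 55.7 FPKM stimulated, fell by 0.53 ± 0.09, and Tyk2 by 0.48 ± 0.07. Jak3 was at 7.93, 7.85, 20.8 and 20.2 FPKM unstimulated and 15.3 to 18.2 FPKM stimulated, so that the stimulated range lay between the unstimulated pairs, and it was not called. Il13ra1, which pairs with IL-4Rα in the type II receptor, went from 2.03, 1.79, 2.28 and 2.41 FPKM to 0.378, 0.257, 0.292 and 0.337 FPKM. That was the largest fall of the list, with a log2 fold change of -2.73 ± 0.19 (adjusted p = 6.84e-06).

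**Figure D1:**
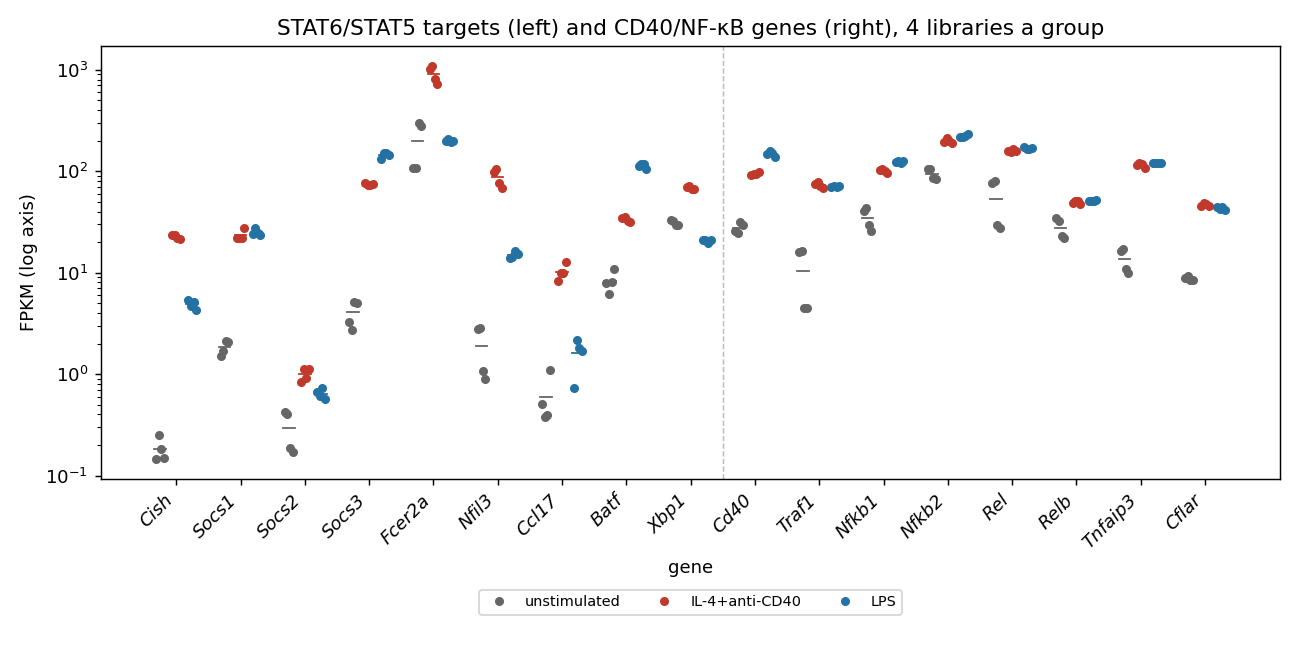
FPKM on a log axis of 9 STAT6 and STAT5 target genes, left of the dashed line, and 8 CD40 and NF-κB genes, right of it. Points are libraries (4 a group), short bars are group means. Cish, Nfil3, Ccl17 and Fcer2a were above LPS as well as above unstimulated libraries, whereas Traf1, Relb and Tnfaip3 were not called against LPS.

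Among 16 NF-κB subunits and inhibitors, 14 rose and 2 fell, with a median log2 fold change of 1.11, and 13 of the rises held. All 5 subunits rose. Nfkb1, the precursor of p50, was at 40.9, 43.0, 29.8 and 26.0 FPKM unstimulated and 103, 104, 99.8 and 96.1 FPKM stimulated (log2 fold change 1.55 ± 0.15, adjusted p = 3.63e-05). Rel, which encodes c-Rel, was at 77.1, 79.5, 29.5 and 27.7 FPKM and then 159, 156, 164 and 157 FPKM (log2 fold change 1.60 ± 0.34, adjusted p = 0.00289). In both genes the groups did not overlap, and in Rel the unstimulated pairs lay far from each other. For the alternative route the log2 fold changes were 1.09 ± 0.10 for Nfkb2, the precursor of p52, and 0.86 ± 0.14 for Relb, and Rela rose by 0.44 ± 0.08. The genes that fell were Tnip1 and Cyld, which restrain the pathway, and neither fall held.

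Inhibitors of NF-κB rose together with the subunits. Tnfaip3, which encodes the deubiquitinase A20, was at 16.5, 17.3, 10.9 and 9.83 FPKM in unstimulated libraries and at 114, 121, 119 and 107 FPKM in stimulated ones. Its log2 fold change of 3.11 ± 0.19 (adjusted p = 3.31e-06) was the largest of the list. Nfkbia, which encodes IκBα, went from 114, 111, 125 and 117 FPKM to 344, 359.7, 313 and 305 FPKM, a log2 fold change of 1.52 ± 0.09 with tight groups. Nfkbie, Nfkbib and Bcl3 rose by 0.80 ± 0.07, 1.28 ± 0.12 and 1.13 ± 0.17. The promoter of Nfkbia is shown because it holds an NF-κB motif, GGG and TTTCC parted by 2 bases, here read on the other strand and in capitals, beginning 29 bases before the start.
Nfkbia promoter, chr12:55492598-55492897, GRCm38, minus strand: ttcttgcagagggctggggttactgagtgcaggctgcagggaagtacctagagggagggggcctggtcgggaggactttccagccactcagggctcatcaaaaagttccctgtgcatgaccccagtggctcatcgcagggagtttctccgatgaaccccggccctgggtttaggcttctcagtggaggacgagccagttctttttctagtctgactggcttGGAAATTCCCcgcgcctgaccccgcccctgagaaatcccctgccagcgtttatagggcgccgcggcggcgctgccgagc
On either strand this motif was found in 5 of the 13 subunit and inhibitor genes with a promoter in the table, 4 of them called higher (Nfkb2, Rel, Nfkbia and Tnfaip3), and in 1.89% of all genes of the table. Among the NF-κB target genes described below it was found in 3 of 18, 2 of them called higher (Bcl2l1 and Il6).

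RNA of CD40 and of some of its adaptors also changed. Of 24 genes of CD40 and TNF receptor signaling 13 rose, all of which held, and 5 fell, where 30.4% of all genes were higher and 32.1% lower. Cd40 was at 25.5, 24.4, 31.7 and 29.3 FPKM unstimulated and 92.6, 93.2, 93.5 and 97.2 FPKM stimulated (log2 fold change 1.78 ± 0.10, adjusted p = 2.46e-06). Traf1, an adaptor that NF-κB induces, was at 16.1, 16.2, 4.51 and 4.44 FPKM and 74.8, 77.4, 71.5 and 68.1 FPKM (log2 fold change 2.85 ± 0.45). Cflar, which encodes the caspase-8 inhibitor c-FLIP, was at 8.81, 9.22, 8.43 and 8.54 FPKM against 45.4, 48.9, 47.1 and 45.7 FPKM, with little spread in either group. Its log2 fold change was 2.44 ± 0.07 (adjusted p = 1.07e-07). Traf5, at 11.6 to 17.7 FPKM unstimulated and 2.76 to 3.94 FPKM stimulated, fell by 2.15 ± 0.19, and Tnfrsf13b, which encodes the BAFF and APRIL receptor TACI, fell by 1.64 ± 0.31. Map3k14, the NIK kinase of the alternative route, was at 13.8 to 15.9 FPKM unstimulated and 13.0 to 14.9 FPKM stimulated and was not called.

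Of 22 NF-κB target genes 16 rose and 2 fell, with a median log2 fold change of 2.12, and 13 rises held. Icam1, an adhesion molecule, was at 13.1, 13.1, 13.8 and 12.9 FPKM unstimulated and 82.4, 86.2, 94.1 and 84.7 FPKM stimulated. Its log2 fold change was 2.74 ± 0.07 (adjusted p = 1.07e-07), and both groups were even. Fas, the death receptor, rose by 2.43 ± 0.19, Gadd45b by 2.16 ± 0.16 and Slc2a6, a hexose transporter, by 2.93 ± 0.54. The targets that fell were Ltb, one chain of the lymphotoxin heterotrimer (168 to 363 FPKM unstimulated, 60.2 to 75.7 FPKM stimulated, log2 fold change -1.99 ± 0.27), and Vcam1, which was at or under 1.16 FPKM in every library.

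Of 11 chemokines tested 4 were higher and 2 lower, where 30.4% of all genes were higher and 32.1% lower. The call held for Ccl17, Ccl9 and, as a fall, Cxcl9, where 23.6% of all genes held as higher and 23.1% as lower. The higher calls were 8 against unstimulated replicates 3 and 4 alone and 2 with IL-4+anti-CD40 replicates 1 and 2 alone. Of the falls, 1 was lost without any 1 IL-4+anti-CD40 library and without unstimulated replicate 3 or 4. Ccl22, which shares its receptor with Ccl17, was at 7.67, 7.81, 1.27 and 0.679 FPKM unstimulated and 21.8, 25.7, 30.2 and 48.5 FPKM stimulated. It was called (log2 fold change 2.88 ± 0.69, adjusted p = 0.00564) but not with IL-4+anti-CD40 replicates 1 and 2 alone. Of 19 cytokines 6 were higher and 5 lower, of which 3 and 4 held, where calls held for 23.6% of all genes as higher and 23.1% as lower. With IL-4+anti-CD40 replicates 1 and 2 alone 3 were higher. Il6 was at 0.247, 0.111, 0 and 0.0361 FPKM before and 1.12, 1.69, 1.28 and 1.16 FPKM after stimulation (log2 fold change 3.70 ± 0.64), a rise that held from a low level. Il10 was at 2.15, 2.62, 0.339 and 0.234 FPKM and 10.3, 6.32, 6.90 and 6.52 FPKM (2.51 ± 0.64), and the unstimulated pairs lay far apart. Tnf was at 9.97, 10.7, 4.11 and 4.12 FPKM unstimulated and 9.11, 8.74, 20.9 and 37.7 FPKM stimulated, and its call was not made without IL-4+anti-CD40 replicates 3 and 4, those with the higher stress gene levels. Il16 and Il12a fell, by 2.25 ± 0.12 and 1.23 ± 0.14.

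**Figure D2:**
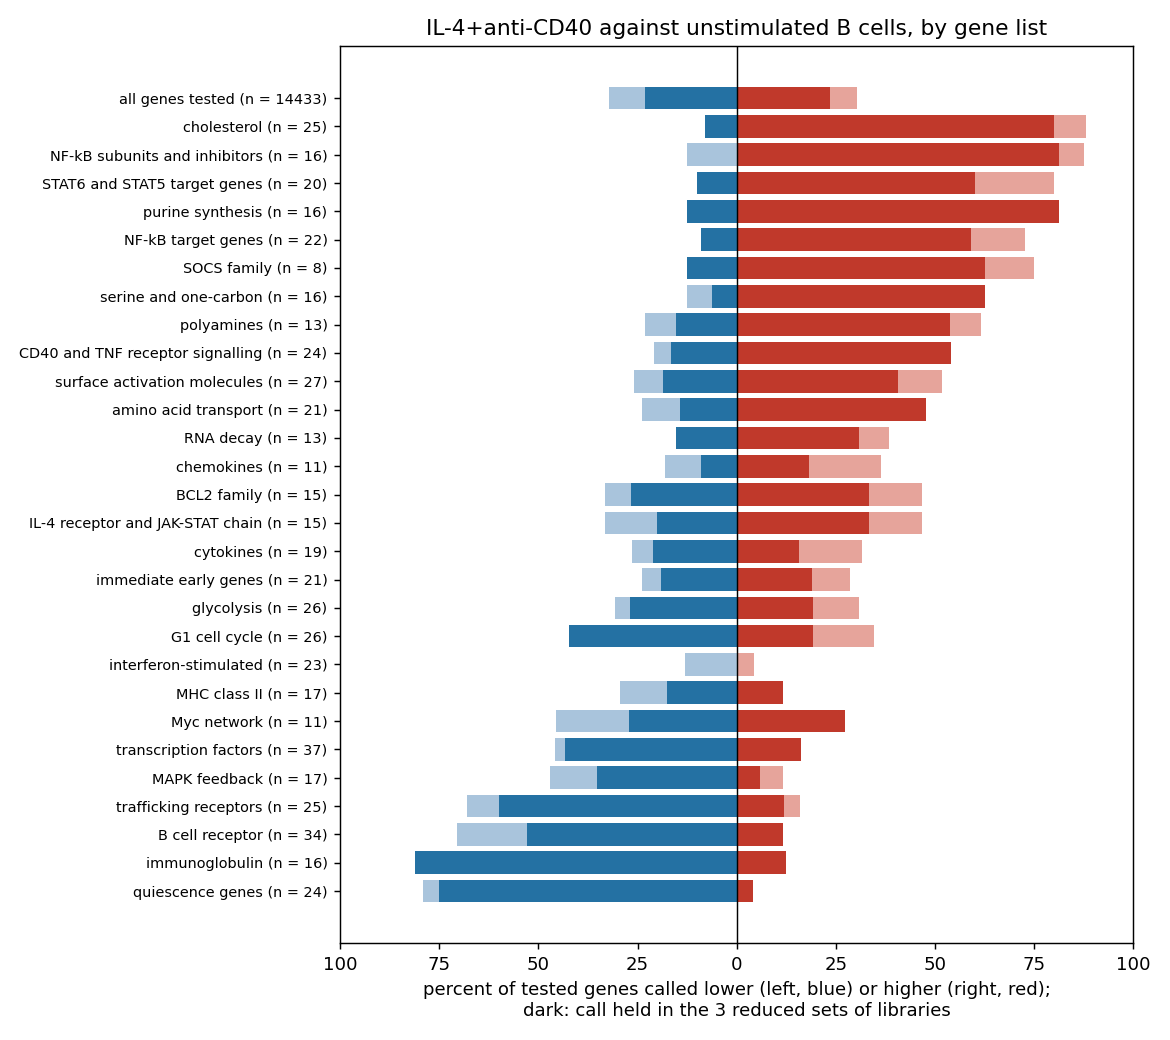
Percent of the tested genes of 28 hand-written lists, and of all genes tested, that were higher (right, red) or lower (left, blue) with IL-4+anti-CD40 than unstimulated, by edgeR at an adjusted p under 0.05. Dark bars are the calls that held in the 3 reduced sets of libraries. Cholesterol and NF-κB genes were mostly higher, quiescence and immunoglobulin genes mostly lower, and no interferon-stimulated gene held.

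RNA of surface molecules was called in both directions. Of 27 surface activation molecules tested 14 were higher and 7 lower, where 30.4% of all genes were higher and 32.1% lower. Of these calls 11 and 5 held. Cd83, a B cell activation marker that stabilizes MHC class II, was at 169, 178, 72.2 and 67.4 FPKM unstimulated and 1179, 1141, 994 and 926 FPKM stimulated (log2 fold change 3.15 ± 0.34, adjusted p = 5.83e-05). Cd69, an early activation antigen, was at 8.40, 8.66, 12.5 and 12.2 FPKM and 86.7, 80.2, 86.7 and 89.6 FPKM (3.06 ± 0.16), and Cd44, a hyaluronan receptor, rose by 3.13 ± 0.27. In these 3 genes every stimulated library was above every unstimulated one. Cd86, a costimulatory ligand for CD28, was at 49.7, 48.5, 8.01 and 8.19 FPKM unstimulated and 71.6, 69.1, 68.2 and 66.6 FPKM stimulated. Every stimulated library was above every unstimulated one, and the difference missed the threshold (log2 fold change 1.30 ± 0.58, adjusted p = 0.0763), which it passed without unstimulated replicate 1 or without replicate 2. Cd86 was also called higher against unstimulated replicates 1 and 2 alone (log2 fold change 0.495) and against replicates 3 and 4 alone (3.112). Among the genes that fell, Icosl, the ligand of ICOS on helper T cells, went from 34.9, 37.1, 67.1 and 66.1 FPKM to 5.72, 5.76, 7.61 and 9.07 FPKM (-2.85 ± 0.28, adjusted p = 3.58e-05). Cd38 and Cd1d1 fell by 3.23 ± 0.50 and 3.50 ± 0.54, and Cd24a, a marker of immature B cells, by 2.47 ± 0.21.

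Of 17 MHC class II genes 2 rose and 5 fell, where 30.4% of all genes were higher and 32.1% lower. The class II chain gene H2-Ab1 was at 1174, 1118, 1767 and 1734 FPKM unstimulated and 2382, 2414, 2089 and 2100 FPKM stimulated (log2 fold change 0.65 ± 0.18, adjusted p = 0.00996). Ifi30, a lysosomal thiol reductase of antigen processing, was at 167, 163, 198 and 214 FPKM and 576, 596, 550.1 and 548 FPKM (1.63 ± 0.11). Both rises held. March1, the ubiquitin ligase that sends class II molecules to degradation, was at 14.9, 14.9, 33.7 and 31.6 FPKM unstimulated and 1.30, 1.13, 1.42 and 1.83 FPKM stimulated. It fell by 4.05 ± 0.34 on the log2 scale (adjusted p = 1.72e-05), with the groups far apart. This list depended on which unstimulated libraries were used, with 10 genes higher and 5 lower against unstimulated replicates 1 and 2 but 2 higher and 9 lower against replicates 3 and 4, and with 5 or 4 higher when unstimulated replicate 3 or 4 was left out. Ciita, the master activator of class II, was at 14.0, 14.6, 61.5 and 55.0 FPKM unstimulated and 34.4 to 40.6 FPKM stimulated and was not called.

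Most components of B cell receptor signaling fell. Of 34 genes 24 were lower and 4 higher, with a median log2 fold change of -0.91, and 18 falls and all 4 rises held. Cd79a, one signaling chain of the receptor, was at 918, 879, 1242 and 1271 FPKM unstimulated and 285, 299, 295 and 324 FPKM stimulated. The log2 fold change was -1.82 ± 0.15 (adjusted p = 1.37e-05) and the groups did not overlap. The kinase genes Lyn, Syk and Btk fell by 1.39 ± 0.07, 1.55 ± 0.08 and 1.79 ± 0.09. Btk, mutated in X-linked agammaglobulinemia, was at 77.6, 77.8, 78.9 and 77.4 FPKM unstimulated and 19.98, 20.1, 24.8 and 23.99 FPKM stimulated. Malt1, a protease on the way from the receptor to NF-κB, rose by 0.81 ± 0.12, and Bcl10, which binds it, was at 21.5 to 25.7 FPKM unstimulated and 22.7 to 25.2 FPKM stimulated, without a call. The inhibitory receptor genes Fcgr2b and Siglecg fell by 2.25 ± 0.22 and 2.14 ± 0.17. The other genes that rose were Vav2, Grb2 and Dapp1, by 0.37 to 0.85.

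Most immunoglobulin genes fell as well. Of 16 genes of this list 13 fell, all of which held, and 2 rose, Ighe and Ung, a uracil DNA glycosylase. The μ constant gene Ighm was at 2828, 2931, 3661 and 3317 FPKM unstimulated and 1447, 1554, 1473 and 1519 FPKM stimulated (log2 fold change -1.07 ± 0.11). Ighd fell by 1.07 ± 0.08 and Igkc, the κ constant gene, by 0.74 ± 0.12. The λ constant genes Iglc1, Iglc2 and Iglc3 fell by 1.51 ± 0.18, 1.58 ± 0.20 and 2.24 ± 0.27, and since these genes are near copies of one another their reads can be split among them. Summed plasma cell markers moved with this list, at 52.0 to 56.5 FPKM stimulated and 108 to 131 FPKM unstimulated. Most of that sum was Jchain, at 44.0 to 49.1 against 89.9 to 124 FPKM. Sdc1 was at 0.875 to 1.31 against 4.85 to 14.9 FPKM. Prdm1, also on the marker list, was at 4.74 to 6.88 against 1.11 to 4.77 FPKM and was not called. The part of plasma cells in the result was not tested.

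Most genes that hold lymphocytes at rest fell. Of 24 quiescence genes 19 were lower and 1 higher, with a median log2 fold change of -1.54, and 18 falls held. Klf2, which maintains the resting state and homing, was at 104, 111, 249 and 224 FPKM unstimulated and 30.2, 29.3, 31.0 and 29.6 FPKM stimulated (log2 fold change -2.50 ± 0.30, adjusted p = 0.000107). Cdkn1b, which encodes the cyclin-dependent kinase inhibitor p27, was at 42.2, 41.3, 37.8 and 37.2 FPKM and 8.63, 8.85, 9.64 and 9.81 FPKM (-2.08 ± 0.07, adjusted p = 3.09e-07). Sesn1, a brake on mTORC1, was at 29.9, 30.3, 30.0 and 30.0 FPKM and 5.09, 5.74, 5.60 and 5.06 FPKM (-2.46 ± 0.07, adjusted p = 1.07e-07). In all 3 genes the groups lay clear of each other. Ccng2, Rbl2, Klf13 and Pik3ip1 fell by 2.81 ± 0.18, 2.27 ± 0.10, 2.31 ± 0.12 and 2.18 ± 0.27. Foxo3 and Foxo1, forkhead factors that PI3K signaling switches off, fell by 1.65 ± 0.12 and 0.59 ± 0.06. Klf10 was the gene that rose, and without unstimulated replicate 2 a second gene was called higher.

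Most receptors that guide B cell traffic fell. Of 25 trafficking receptor genes 17 were lower and 4 higher, with a median of -1.24, and 15 and 3 of those calls held. S1pr1, the sphingosine-1-phosphate receptor used to leave lymphoid organs, was at 64.9, 68.2, 115 and 104 FPKM unstimulated and 9.24, 9.55, 13.7 and 20.03 FPKM stimulated (log2 fold change -2.73 ± 0.30, adjusted p = 7.15e-05). S1pr4 was at 52.1 to 55.4 FPKM and 5.69 to 10.1 FPKM (-2.76 ± 0.17), and the integrin chain gene Itgb7 at 38.3 to 67.1 FPKM and 4.45 to 6.13 FPKM (-3.26 ± 0.23). Cxcr4, the receptor of the chemokine CXCL12, fell by 1.85 ± 0.20. Gpr183, the oxysterol receptor that guides activated B cells to the edge of the follicle, was at 24.7, 27.6, 25.03 and 23.5 FPKM unstimulated and 173, 179, 138 and 127 FPKM stimulated. It rose by 2.64 ± 0.13 (adjusted p = 1.13e-06), with no stimulated library below 127 FPKM. S1pr3, a sphingosine-1-phosphate receptor known from marginal zone B cells, rose by 1.64 ± 0.40. Summed markers of those cells, S1pr3 itself among them, were at 140.1 to 155 FPKM stimulated and 94.2 to 212 FPKM unstimulated. Ccr2, Cx3cr1 and Itgam, which myeloid cells carry, were among the genes that fell, by 2.44 ± 0.34, 1.87 ± 0.20 and 1.26 ± 0.24. Itgam is itself among the lower myeloid markers given above, and the part of myeloid cells was not tested. Ccr7, which draws B cells toward the T cell zone, was at 324, 332, 81.6 and 80.0 FPKM unstimulated and 308, 319, 282 and 281 FPKM stimulated. It was not called (adjusted p = 0.3), and the sign of its log2 fold change turned with the unstimulated pair used, being -0.14 against replicates 1 and 2 and 1.90 against replicates 3 and 4.

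Of 37 transcription factors of the B cell program 17 were lower and 6 higher, where 32.1% of all genes were lower and 30.4% higher, and 16 and 6 of those calls held. Against unstimulated replicates 3 and 4 alone 11 were higher. The E protein inhibitor Id3 was at 46.8, 46.4, 36.2 and 33.9 FPKM unstimulated and 4.84, 4.57, 4.77 and 5.06 FPKM stimulated (-3.06 ± 0.12, adjusted p = 3.96e-07). Ets1, which restrains plasma cell differentiation, was at 123, 124, 141 and 134 FPKM and 25, 25.6, 25.1 and 24.7 FPKM (-2.36 ± 0.08, adjusted p = 2.94e-07). Bach2, a repressor that keeps B cells from becoming plasma cells, was at 40.4, 41.6, 26.4 and 24.99 FPKM and 8.84, 8.42, 9.24 and 9.48 FPKM (-1.86 ± 0.17, adjusted p = 2.4e-05). In none of these 3 genes did the groups overlap. Irf4, which rises with the strength of activation, was at 77.8, 79.5, 41.2 and 38.0 FPKM unstimulated and 209, 217, 223 and 213 FPKM stimulated (1.89 ± 0.24). Ahr, the aryl hydrocarbon receptor, rose by 2.36 ± 0.23, Bhlhe40 by 1.67 ± 0.24 and Xbp1, a factor of the secretory program, by 1.17 ± 0.07. Prdm1, the plasma cell factor Blimp-1, was at 4.02, 4.77, 1.11 and 1.15 FPKM unstimulated and 4.74 to 6.88 FPKM stimulated and was not called. Pax5 was at 66.8 to 139.6 FPKM unstimulated and 72.5 to 96.0 FPKM stimulated, also without a call.

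Of 21 immediate early genes 6 were higher and 5 lower at 3 hours, where 30.4% of all genes were higher and 32.1% lower. Against either unstimulated pair alone more were called, with 11 higher and 6 lower against replicates 1 and 2, and 11 higher and 8 lower against replicates 3 and 4. Egr2 was at 10.5, 10.3, 2.63 and 2.57 FPKM unstimulated and 37.2, 37.0, 28.8 and 26.6 FPKM stimulated (2.34 ± 0.47), whereas Egr1 and Egr3 fell by 0.79 ± 0.08 and 1.14 ± 0.08. Fos was at 8.60, 7.87, 81.3 and 76.4 FPKM unstimulated and 1.47, 2.06, 4.81 and 6.18 FPKM stimulated, and its fall (-3.58 ± 0.89, adjusted p = 0.00679) was not called against unstimulated replicates 1 and 2 alone. Of 17 genes of MAPK feedback 8 fell and 2 rose (7 against unstimulated replicates 3 and 4 alone), of which 1 rise was lost without any 1 IL-4+anti-CD40 library and without unstimulated replicate 3 or 4, with Dusp6, a phosphatase of ERK, at 5.51 to 34.5 FPKM unstimulated and 1.21 to 1.79 FPKM stimulated. Myc, which drives growth and metabolism, was at 50.5, 52.2, 32.8 and 31.2 FPKM unstimulated and 229.5, 242, 205 and 196 FPKM stimulated. Its log2 fold change was 2.41 ± 0.18 (adjusted p = 9.78e-06) and every stimulated library was above every unstimulated one. Mxd4 and Mxi1, which compete with Myc for its partner Max, fell by 3.17 ± 0.20 and 2.19 ± 0.33, and Max was at 27.7 to 33.9 FPKM unstimulated and 27.6 to 31.6 FPKM stimulated, without a call. In the Myc network as a whole 3 of 11 genes rose and 5 fell, beside the shares of all genes given above.

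Cell cycle genes of the first gap phase (G1) were split. Of 26 tested 9 were higher and 11 lower, where 30.4% of all genes were higher and 32.1% lower. Of those calls 5 and 11 held. Ccnd2, the cyclin D that B cells use to enter the cycle, was at 10.1, 10.1, 11.6 and 10.4 FPKM unstimulated and 226, 245, 183 and 170.1 FPKM stimulated. Its log2 fold change was 4.31 ± 0.15 (adjusted p = 2.4e-07), while Ccnd3 and Ccnd1 fell by 1.39 ± 0.14 and 1.66 ± 0.34. Cdk4 and Cdk6, the kinases that pair with them, rose by 1.14 ± 0.10 and 1.04 ± 0.23. Ccne1, of the later G1, fell by 2.37 ± 0.35, and the retinoblastoma family genes Rb1, Rbl1 and Rbl2 by 1.02 ± 0.06, 0.88 ± 0.12 and 2.27 ± 0.10. The proliferation marker Mki67 was at 4.26 to 8.22 FPKM unstimulated and 4.20 to 5.41 FPKM stimulated, and Ccna2 and Ccnb1 were not called either.

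**Figure D3:**
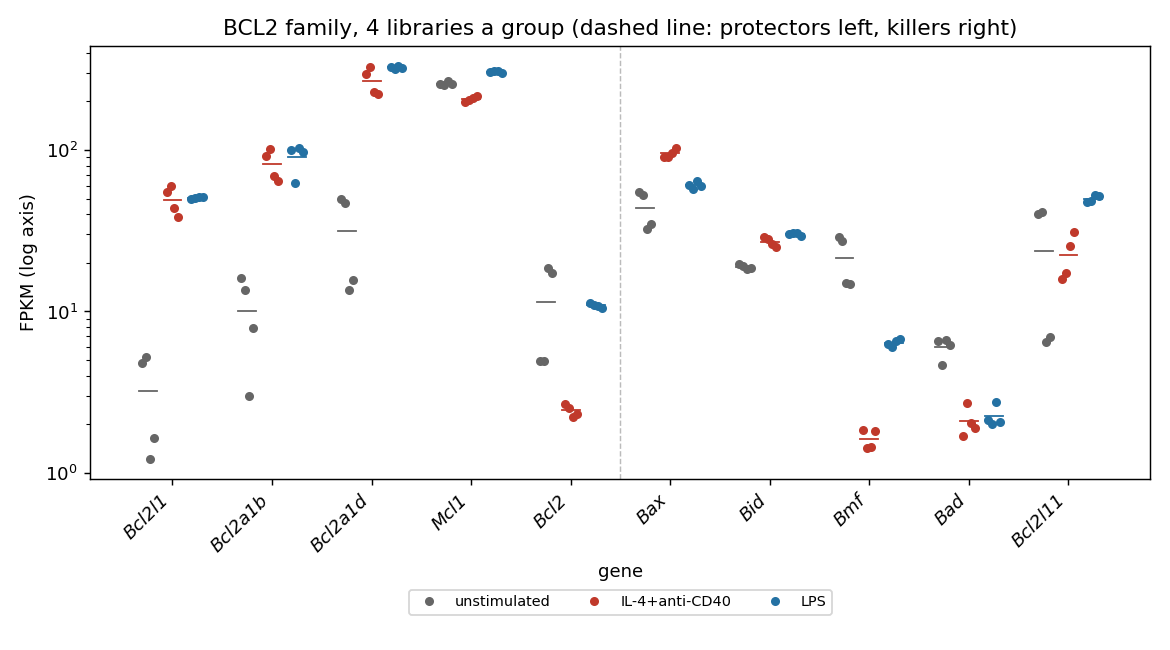
FPKM on a log axis of 10 genes of the BCL2 family, protectors left of the dashed line and killers right of it. Points are libraries (4 a group), short bars are group means. Bcl2l1 rose from 1.22 to 5.25 FPKM to at least 38.5 FPKM while Bcl2 and Bmf fell, and LPS libraries had more Bcl2 and more Bmf than IL-4+anti-CD40 libraries.

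Genes of the BCL2 family were called in both directions. Of 15 tested 7 were higher and 5 lower, where 30.4% of all genes were higher and 32.1% lower. The lower share is thus close to that of all genes. Of those calls 5 and 4 held. Bcl2l1, which encodes the protector BCL-XL, was at 4.81, 5.25, 1.22 and 1.64 FPKM unstimulated and 54.6, 60.1, 43.5 and 38.5 FPKM stimulated (log2 fold change 3.95 ± 0.47, adjusted p = 0.000105). Bcl2 itself was at 4.91, 4.95, 18.5 and 17.4 FPKM and 2.68, 2.53, 2.23 and 2.33 FPKM (-2.22 ± 0.46, adjusted p = 0.00264). In both genes the groups were separate although the unstimulated pairs differed. Bcl2a1b and Bcl2a1d, protector genes that NF-κB induces, rose by 3.03 ± 0.43 and 3.11 ± 0.44, and as near copies of each other they can share reads. Mcl1 fell by 0.29 ± 0.07. Of the killers, Bmf was at 28.9, 27.4, 15.0 and 14.8 FPKM unstimulated and 1.84, 1.43, 1.45 and 1.82 FPKM stimulated (-3.69 ± 0.26, adjusted p = 6.82e-06). Bad fell by 1.51 ± 0.19, while Bax and Bid rose by 1.15 ± 0.17 and 0.54 ± 0.07. Bcl2l11, which encodes BIM, was at 40.2, 41.4, 6.51 and 6.98 FPKM unstimulated and 15.8, 17.2, 25.3 and 31.1 FPKM stimulated, with full overlap and no call.

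Most genes of cholesterol metabolism rose. Of 25 cholesterol genes 22 rose and 2 fell, with a median log2 fold change of 2.08, and 20 rises held. Hmgcs1, an early enzyme of the mevalonate pathway, was at 28.3, 28.8, 9.62 and 9.45 FPKM unstimulated and 132, 138, 142 and 127 FPKM stimulated (log2 fold change 2.85 ± 0.38, adjusted p = 0.000217). The unstimulated pairs differed, and the stimulated libraries lay together above them. Idi1, Lss and Sqle rose by 3.10 ± 0.41, 2.89 ± 0.21 and 2.75 ± 0.39, and Mvd by 2.08 ± 0.10. Insig1, a sterol-regulated brake on SREBP, rose by 2.60 ± 0.34. Srebf2, the factor that drives these genes, rose by 0.78 ± 0.07. The genes that fell were Insig2 and Abca1, the exporter of cholesterol. Abca1 was at 22.5, 22.0, 13.5 and 11.8 FPKM unstimulated and 2.02, 1.95, 2.55 and 2.86 FPKM stimulated (-2.87 ± 0.24, adjusted p = 1.51e-05).

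The promoter of Hmgcs1 is shown because of the 17 cholesterol genes with a promoter in RefSeq it was the one to hold TCACCCCAC, a sterol response element, together with CCAAT boxes, the site of the partner factor NF-Y. Both motifs are in capitals on the plus strand, with CCAAT read here as ATTGG.
Hmgcs1 promoter, chr13:119690101-119690400, GRCm38, plus strand: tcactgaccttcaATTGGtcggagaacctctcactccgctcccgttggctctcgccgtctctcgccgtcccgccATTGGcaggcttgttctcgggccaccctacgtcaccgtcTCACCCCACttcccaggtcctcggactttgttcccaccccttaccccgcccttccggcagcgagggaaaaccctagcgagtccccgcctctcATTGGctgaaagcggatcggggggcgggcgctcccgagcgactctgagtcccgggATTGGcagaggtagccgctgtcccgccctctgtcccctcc
CCAAT was found on either strand in 14 of these 17 genes and in 41.1% of all genes of the table, and TCACCCCAC in 0.614%. Neither STAT motif was found in any of the 17.

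**Figure D4:**
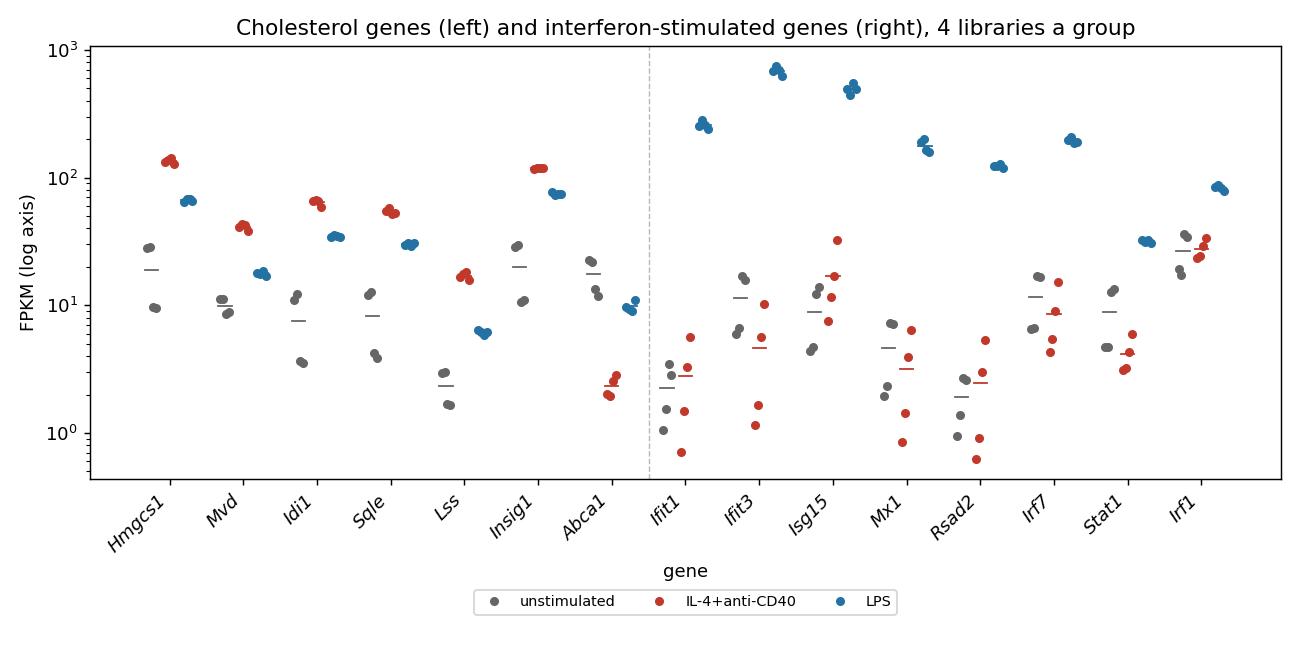
FPKM on a log axis of 7 cholesterol genes, left of the dashed line, and 8 interferon-stimulated genes, right of it. Points are libraries (4 a group), short bars are group means. The cholesterol genes other than Abca1 were highest with IL-4+anti-CD40, and the interferon-stimulated genes were highest with LPS.

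Most genes of purine and one-carbon synthesis rose too. Of 16 genes of purine synthesis 13 rose and 2 fell, and all 15 calls held. Ppat, the enzyme of the committed step, was at 12.0, 11.6, 8.51 and 8.22 FPKM unstimulated and 33.1, 34.6, 28.4 and 27.8 FPKM stimulated (1.64 ± 0.14), and Pfas rose by 1.65 ± 0.15. The other rises of the list lay between 0.63 and 1.45, and those that fell were Prps2 and Adssl1, each a second form of an enzyme whose other gene rose. Of 16 genes of serine and one-carbon metabolism 10 rose, all of which held, and 2 fell, of which 1 was lost without IL-4+anti-CD40 replicate 1, 2 or 3 and without unstimulated replicate 3 or 4. Shmt2, the mitochondrial serine hydroxymethyltransferase, was at 57.4, 57.3, 27.1 and 25.1 FPKM unstimulated and 198, 208, 174 and 176 FPKM stimulated (2.21 ± 0.28, adjusted p = 0.000148), and Mthfd2, its mitochondrial partner, rose by 2.34 ± 0.40. Of 13 polyamine genes 8 rose and 3 fell, where 30.4% of all genes were higher and 32.1% lower. Odc1, the first enzyme, was at 92.4, 95.0, 23.8 and 24 FPKM unstimulated and 189.5, 200.2, 172 and 163 FPKM stimulated, and its call (1.65 ± 0.46, adjusted p = 0.0112) did not hold. Srm, spermidine synthase, rose by 2.28 ± 0.20, and Eif5a, the protein modified with spermidine, by 1.53 ± 0.12.

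Amino acid carriers were called in both directions. Of 21 amino acid transporter genes 10 rose, all of which held, and 5 fell, where 30.4% of all genes were higher and 32.1% lower. Slc7a5, the large neutral amino acid transporter, was at 42.5, 43.4, 9.40 and 9.50 FPKM unstimulated and 176, 188, 160.4 and 163 FPKM stimulated (2.74 ± 0.52, adjusted p = 0.00153), and its heavy chain gene Slc3a2 rose by 1.30 ± 0.19. Slc7a1, an arginine and lysine transporter, rose by 2.01 ± 0.27 and the glutamine transporter Slc1a5 by 0.71 ± 0.12. Slc43a2, at 7.86 to 9.26 FPKM unstimulated and 1.48 to 1.86 FPKM stimulated, fell by 2.39 ± 0.09. Glycolysis genes were called at shares close to those of all genes, with 8 of 26 higher and 8 lower. Of these calls 5 and 7 held. Hk2 rose by 2.05 ± 0.20 and the lactate exporter Slc16a1 by 1.92 ± 0.29, while Hk1, Pfkfb3 and Pfkfb4 fell by 1.17 ± 0.15, 1.02 ± 0.08 and 1.10 ± 0.15. Slc2a1, which encodes the glucose transporter GLUT1, was at 11.5 to 15.6 FPKM unstimulated and 10.3 to 13.1 FPKM stimulated and was not called.

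Among 13 regulators of RNA decay 5 rose and 2 fell, where 30.4% of all genes were higher and 32.1% lower. Of those calls 4 and 2 held. Zfp36l2, which binds AU-rich elements and favors quiescence, was at 91.4, 94.1, 159 and 144 FPKM unstimulated and 13.0, 12.3, 11.3 and 12.6 FPKM stimulated (-3.30 ± 0.21, adjusted p = 4.02e-06), and its relative Zfp36l1 rose by 0.87 ± 0.13. The regnase family genes Zc3h12c and Zc3h12a rose by 2.06 ± 0.25 and 0.76 ± 0.07, and Zc3h12d fell by 0.81 ± 0.14.

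Across all genes, the 8 largest held log2 fold changes in each direction were taken among genes whose higher group had 100 counts or more in each library. Muc1, an epithelial mucin, was at 0.160, 0.180, 0.103 and 0.187 FPKM unstimulated and 3.43, 3.63, 4.45 and 4.66 FPKM stimulated (4.68 ± 0.23, adjusted p = 1.13e-06). Lad1 was at 0.760, 0.634, 0.213 and 0.219 FPKM and 12.6, 13.9, 11.4 and 10.2 FPKM (4.72 ± 0.38). Both were under 1 FPKM in every unstimulated library. Mfsd2a, a transporter of lysophospholipids, rose by 4.81 ± 0.48 and Spsb1, a ubiquitin ligase adaptor, by 5.08 ± 0.34. In the other direction, Rnf144a, a ubiquitin ligase, was at 10.3, 10.2, 15.1 and 14.1 FPKM and 0.447, 0.389, 0.487 and 0.610 FPKM (-4.67 ± 0.20, adjusted p = 6.95e-07). Scml4 was at 8.64, 8.74, 10.7 and 10.7 FPKM and 0.327, 0.339, 0.416 and 0.452 FPKM (-4.64 ± 0.15, adjusted p = 2.4e-07). Both were under 1 FPKM in every stimulated library. Cmah, the hydroxylase of sialic acid, fell by 4.42 ± 0.32, and Spns2, the exporter of sphingosine-1-phosphate, by 4.37 ± 0.26. Hhex, a homeobox factor, fell by 4.69 ± 0.30, Rapgef4 by 4.74 ± 0.44, Itih5 by 4.60 ± 0.61 and B3gnt8 by 4.72 ± 0.49. By difference in FPKM the genes that gained most were H2-Ab1, Cd83, Fcer2a, Hsp90ab1 and Syngr2, and those that lost most were Gm23935, Igkc, Ighm, Cd79a and Iglc2, where the call of Gm23935 did not hold.

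In the direct test of the stimuli against each other, 17.3% of 14078 genes were higher in the IL-4+anti-CD40 group and 22.3% lower. With total counts alone as scaling the balance turned, from 2439 genes higher and 3145 lower to 4712 higher and 2428 lower. The STAT6 and STAT5 targets split into 11 higher and 7 lower of 20. Nfil3 was at 97.3, 106, 76.5 and 68.2 FPKM with IL-4+anti-CD40 and 14.1, 14.2, 16.2 and 15.2 FPKM with LPS, a difference of 2.49 ± 0.12 on the log2 scale (adjusted p = 1.9e-08). For Cish the difference was 2.16 ± 0.07, for Ccl17 2.61 ± 0.26 and for Fcer2a 2.15 ± 0.11, each with separate groups. Xbp1, at 70.5, 71.2, 67.0 and 66.8 FPKM against 21.2, 20.9, 19.6 and 21.1 FPKM, was also higher, by 1.69 ± 0.05. Batf and Pim2 were lower, by 1.81 ± 0.06 and 2.11 ± 0.07. Socs1 did not pass the test (difference -0.14 ± 0.09, adjusted p = 0.227). Of the 16 NF-κB subunits and inhibitors 1 was higher than with LPS, Otulin, and 10 lower, and of the 22 targets 2 were higher and 13 lower. With total counts alone as scaling these were 2 higher and 7 lower, and 4 higher and 11 lower. Nfkbiz, which turns on secondary NF-κB genes, was at 30.9, 28.4, 34.5 and 34.0 FPKM with IL-4+anti-CD40 and 183, 187, 182 and 181 FPKM with LPS (-2.57 ± 0.07).

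Interferon-stimulated genes had the lowest median of the 28 lists against LPS. All 23 tested were lower with IL-4+anti-CD40 than with LPS, with a median log2 difference of -4.80 against 0.01 over all genes. Ifit3 was at 1.15, 1.66, 5.62 and 10.2 FPKM with IL-4+anti-CD40, 6.01, 6.68, 17.0 and 15.9 FPKM unstimulated and 681, 753, 693 and 629 FPKM with LPS. Against unstimulated cells 1 of the 23 was higher and 3 lower, and no call held. Leaving out 1 library gave 0 to 1 higher and 0 to 5 lower genes, with 0 lower without IL-4+anti-CD40 replicate 2 and 5 without replicate 4. Within the IL-4+anti-CD40 group Ifit3, Isg15 and Cxcl10, picked after their values were seen, were higher in replicates 3 and 4, the libraries with more stress gene RNA, than in replicates 1 and 2. Chemokines and cytokines also lay below LPS, 10 of 13 and 17 of 22 genes. Ccl3 was at 12.2 to 30.7 FPKM with IL-4+anti-CD40 and 204 to 224 FPKM with LPS, and Il12b, which encodes a chain of IL-12 and IL-23, at 0.0265 to 0.207 FPKM and 10.1 to 11.8 FPKM.

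Cholesterol, one-carbon and MHC class II genes were mostly higher than with LPS. Of the 25 cholesterol genes 21 were higher and 1 lower, with a median difference of 0.80. Lss was at 16.6, 17.5, 18.2 and 15.8 FPKM with IL-4+anti-CD40 and 6.41, 6.19, 5.88 and 6.22 FPKM with LPS (1.41 ± 0.05, adjusted p = 2.68e-09), and Abca1 was the lower gene (-2.11 ± 0.12). Of the 16 serine and one-carbon genes 12 were higher and none lower, and of the 17 MHC class II genes 10 were higher and 4 lower, with H2-DMa at 142 to 174 FPKM against 40.1 to 42.7 FPKM. Gpr183 and S1pr3 were higher by 1.42 ± 0.09 and 3.33 ± 0.11, and Spsb1 by 4.07 ± 0.18. Muc1 was higher by 1.08 ± 0.20. Bcl2 and Bmf were lower by 2.21 ± 0.06 and 2.02 ± 0.10, while Bcl2l1 (-0.09 ± 0.11, adjusted p = 0.549) and Ccnd2 (0.09 ± 0.09, adjusted p = 0.466) did not pass the test. Bach2 was at 29.4 to 31.8 FPKM with LPS, within its unstimulated range, and IL-4+anti-CD40 was lower by 1.81 ± 0.06.

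**Figure D5:**
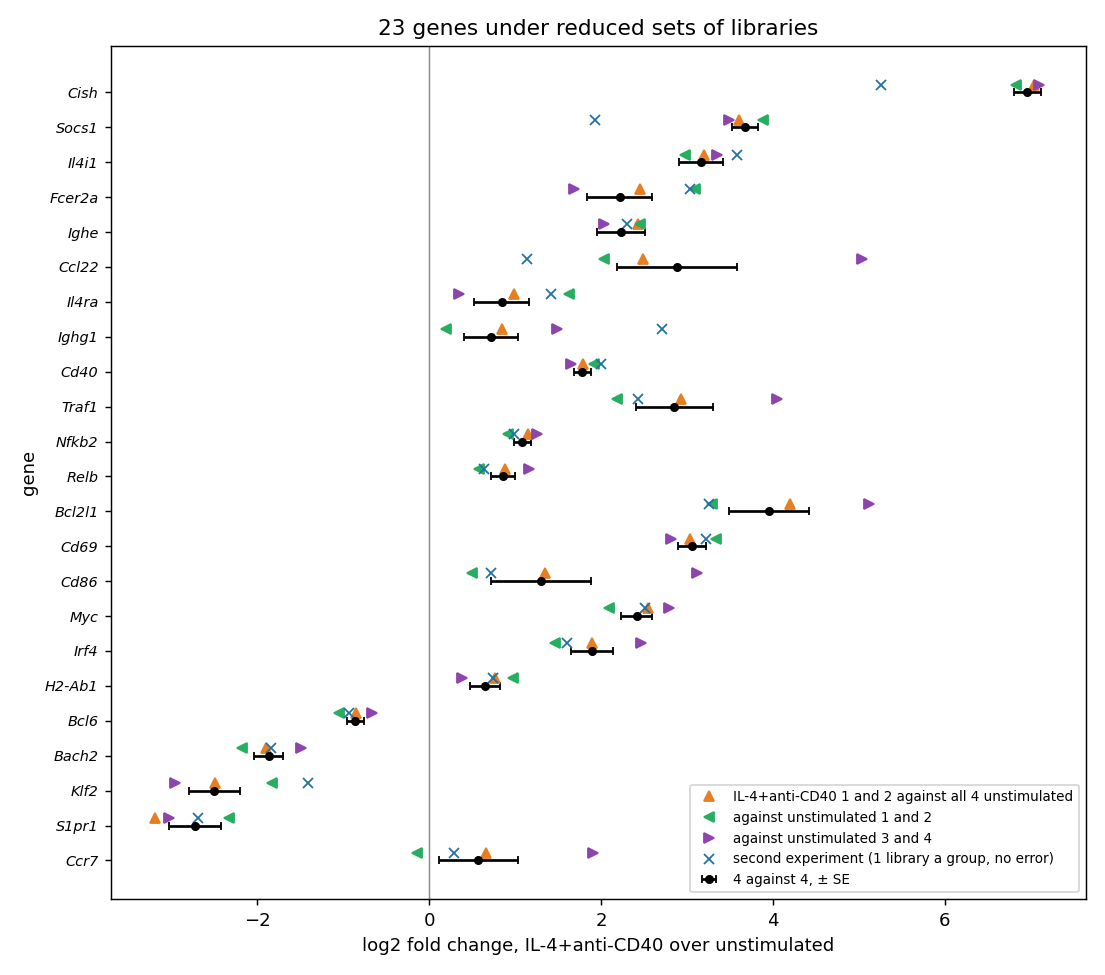
Log2 fold change, IL-4+anti-CD40 over unstimulated, of 23 signaling and B cell genes with all 8 libraries (black, ± standard error), with IL-4+anti-CD40 replicates 1 and 2 alone, against each unstimulated pair, and in the second experiment (1 library a group, no error). Cish stayed above 5 in every set, and Ccr7 crossed 0.

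The second experiment of the study holds 1 unstimulated and 1 IL-4+anti-CD40 library, which allow no test. Of the 4232 genes called higher in the first experiment with a mean of at least 10 counts there, 95.5% were higher in the second, and of the 4369 called lower 94.6% were lower, where 49.3% of all 13504 such genes were higher. Among genes whose call held these shares were 98.2% and 97.6%. The log2 ratio of Cish was 5.26, that of Nfil3 5.17, that of Fcer2a 3.03 and that of Bcl2l1 3.26. Klf2, S1pr1 and Cdkn1b were at -1.41, -2.69 and -2.02. Ighg1, short of the threshold in the main test of the first experiment, had a log2 ratio of 2.71 in the second.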

How the data were processed

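RNA was measured in mouse spleen B cells. The count values were deposited by the authors as reads per gene, with featureCounts 1.5.0-p3 after HISAT2 2.0.5 alignment to mm10 per the submitters' processing notes. The FPKM values of the same genes were also deposited by the authors. The annotation release and strand setting are not given in the sources used here, so overlapping and antisense genes cannot be told apart. The members, gene lists and tests were chosen with earlier results of these data known.

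Counts of the 8 libraries, or of the 8 IL-4+anti-CD40 and LPS libraries, were filtered with filterByExpr, scaled by TMM and tested in edgeR 4.0.16 (limma 3.58.1, R 4.3.3) with the quasi-likelihood test, Benjamini-Hochberg adjustment over all tested genes and a threshold of 0.05. Standard errors are the log2 fold change divided by the square root of F. The p-values measure the spread between samples, which may be technical where samples share a mouse. A call held when it was also made in each of 3 reduced sets of libraries. DESeq2 1.42.0 and other filters, scalings, library sets and a replicate block were tried as alternatives. The code was tested on simulated data.

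The 28 gene lists were written by hand. Named genes were fixed anchors, up to 4 called and non-overlapping genes per list with a mean of at least 100 counts in the higher group, 8 per direction by fold change across all genes (held, at least 100 counts in each library of the higher group, same direction in the second experiment) and 5 per direction by FPKM difference. Lack of overlap was a condition of choice for these list genes and those picked by fold change, so it is no further result there. A few genes are not reported here. Other list members named in the text were chosen after their values were seen. The log2 ratios of the second experiment used a prior count of 2, for genes whose libraries averaged 10 counts or more. Total counts were 17804851 to 22583661 per library. Promoters came from a RefSeq table on GRCm38.p6, 250 bases before to 50 after a start.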

Additional observations from a re-analysis of the deposited data

Results flagged for a closer look

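Some genes called in the first experiment had a log2 ratio of the other sign in the second, which has 1 library a group, so this difference was not tested. They were 188 of the 4232 genes called higher and 237 of the 4369 called lower. Named genes among them were Ccl9 (-0.3293 in the second, 1.08 in the first), Gbp2 (0.1247 and -0.54) and Ptpn6 (0.0872 and -1.32).

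In 7 of 264 groups of 4 libraries, over 132 named genes, 1 library lay beyond Dixon's critical value, where chance gives about 1 in 20. In IL-4+anti-CD40 replicate 1, H2-Oa was at 19.31 FPKM against 23.34 to 23.77 in the others, Hhex at 1.464 against 2.098 to 2.185, and Il10 at 10.29 against 6.324 to 6.903. In replicate 3, Rapgef4 was at 0.1896 FPKM against 0.107 to 0.1192, and Zc3h12d at 13.61 against 12.3 to 12.45. In replicate 4, Socs1 was at 27.61 FPKM against 21.89 to 22.08. In unstimulated replicate 4, Il4i1 was at 0.06445 FPKM against 0.1226 to 0.1286.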

How the results depend on the processing

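Requiring an absolute log2 fold change of 1 left 1734 genes higher and 2540 lower than unstimulated, from 4389 and 4633, and 478 higher and 1161 lower than with LPS, from 2439 and 3145. With total counts alone as scaling, 4712 were higher and 2428 lower than with LPS, and 3454 higher and 5574 lower than unstimulated, as the median moved from 0.006 to 0.141 and from -0.041 to -0.191. That scaling turned the second experiment's ratios of Gbp2 to -0.016 and Ptpn6 to -0.054. Against unstimulated replicates 1 and 2 alone Ccr7 turned to -0.137, from 0.57, uncalled. Leaving out each replicate in turn gave 4047 to 4343 higher and 4274 to 4736 lower than unstimulated, and 2055 to 2654 higher and 2837 to 3276 lower than with LPS. Whether replicate numbers pair the samples was not settled. Deviations of same-numbered libraries from their group mean correlated at -0.028 to 0.0091 (with LPS -0.028 to 0.017). Such correlations over all tested genes cannot exclude pairing that shows in a part of the genes. A replicate block gave 4172 higher and 4367 lower (with LPS 2164 and 2973). DESeq2 gave 4531 higher and 4697 lower than unstimulated. With IL-4+anti-CD40 replicates 1 and 2 alone the counts were 3849 and 3847, and with replicates 3 and 4 alone, chosen after seeing the data, 3652 and 3496. Over the named genes and alternatives, 2565 results kept direction and side of the threshold, 49 lost the call, 13 gained one and 1 turned. Of the list counts 1007 stayed within 1.5 times and 113 did not. The causes were not tested. A replicate block made 12 interferon-stimulated genes lower than unstimulated in place of 3. Genes left out by the count filter could not be described at this depth.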

Other observations

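Further genes of these lists, named after their values were seen, changed in a way that held. Il2ra, the alpha chain of the interleukin-2 receptor, was at 0.721 to 12.0 FPKM unstimulated and 53.9 to 82.2 FPKM stimulated (log2 fold change 3.46 ± 0.89). Cd274, which encodes the checkpoint ligand PD-L1, rose by 1.04 ± 0.21, and Tfrc, the transferrin receptor, by 1.27 ± 0.26. Maff, a small Maf factor, rose by 3.21 ± 0.64, and Lef1, a Wnt pathway factor, by 0.88 ± 0.27. Lpar6, a receptor for lysophosphatidic acid, fell by 2.34 ± 0.28, and Irf2, a repressor of interferon responses, by 2.27 ± 0.11. Il18, a cytokine of the IL-1 family, fell by 2.84 ± 0.43. Dapp1, an adaptor of the B cell receptor, was at 19.3, 18.5, 17.5 and 17.5 FPKM unstimulated, 32.4, 30.0, 33.4 and 33.1 FPKM with IL-4+anti-CD40 and 7.80, 7.99, 7.91 and 8.94 FPKM with LPS, so that it was higher than with LPS by 1.93 ± 0.06.

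Cr2, which encodes the complement receptor CD21, was not called against unstimulated cells, at 12.4, 12.8, 112 and 98.4 FPKM unstimulated and 88.7, 91.0, 75.0 and 66.0 FPKM stimulated, and was higher than with LPS (15.4 to 16.5 FPKM) by 2.29 ± 0.09. Batf3 was called higher (1.60 ± 0.54) but did not hold, and lay above LPS by 3.92 ± 0.36.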
